A study of Homo sapiens with 10 samples.

Results

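The aminoacyl-tRNA synthetases were followed through a time course of p53 activation in the BJ line, hTERT-immortalised human fibroblasts. The members were taken by symbol. The list held 36 symbols, 20 of cytosolic enzymes or their subunits and 16 of mitochondrial enzymes, whose symbols end in 2. Rows with these symbols were found for 35, all 20 cytosolic and 15 mitochondrial, among 11258 transcripts measured by both RNA-Seq and Ribo-Seq. SARS2 had no row of that symbol, and the row with its Ensembl gene identifier carried the name FBXO17 and was not used. The cells were either untreated (control) or kept on nutlin-3a, which frees p53 from its inhibitor MDM2, for 2, 4, 6 or 19 h. Each time point has 1 RNA-Seq library, made from poly(A) RNA, and 1 Ribo-Seq library, made from the mRNA fragments that ribosomes cover. All groups share the same immortalised line and differ in nutlin-3a and time only, as far as the labels state.

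An aminoacyl-tRNA synthetase joins an amino acid to the tRNAs that decode it, and so supplies the ribosome with its substrates. Mammalian cells use separate sets of enzymes in the cytosol and in the mitochondria, all encoded in the nucleus, although GARS and KARS each supply both compartments from a single gene. Many cytosolic synthetase genes are known targets of ATF4, the transcription factor of the amino acid response. Several cytosolic synthetases are held together, with the scaffold proteins AIMP1, AIMP2 and EEF1E1, in the multisynthetase complex.

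Values are FPKM, reads scaled to transcript length and to the size of the library. The library totals behind these values were 23845553 to 27554284 reads in RNA-Seq and 7744903 to 14460718 reads in Ribo-Seq, as worked out from the step size of low values. Changes are log2 ratios to the control of the same assay, with values below 1 FPKM set to 1. Translation efficiency (TE) is the log2 ratio of Ribo-Seq to RNA-Seq FPKM. Genes that reached 5 FPKM in 1 or more libraries of RNA-Seq and of Ribo-Seq entered the counts, which 7015 did, and a gene is called higher or lower when it changed at least 1.5-fold (0.585 on the log2 scale). All 20 cytosolic and 10 mitochondrial synthetases entered. EARS2, MARS2, NARS2, PARS2 and WARS2 did not, VARS2 entered only through its Ribo-Seq value at 6 h, and AARS2 only through those at 6 and 19 h. With 1 library per group there is no replicate check and no test, and the errors after ± are counting errors (SE) of the log2 change. As checks of the labels, the RNA of the p53 target CDKN1A was at 68.6 FPKM in the control and 1316 FPKM at 19 h. All 7 fibroblast markers were present, with a summed RNA level of 9106 to 12213 FPKM. Of 6 markers of other cell types EPCAM and PECAM1 had no row, CDH1 and PTPRC stayed below 0.25 FPKM, and the sum of 243 to 327 FPKM was mostly KRT18.

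In the control, cytosolic synthetase mRNAs were several-fold more abundant per length than mitochondrial ones. The median RNA level was 55.1 FPKM over the 20 cytosolic members and 7.87 FPKM over the 15 mitochondrial members, against 20.1 FPKM over all entered genes. GARS, which charges glycine in both compartments, was the highest cytosolic member with 88.6 FPKM, and FARSB, a subunit of phenylalanyl-tRNA synthetase, the lowest with 24.6 FPKM. In the mitochondrial set the order ran from IARS2 with 45.6 FPKM to PARS2 with 1.95 FPKM. The sets overlapped, since IARS2 and CARS2 (31.0 FPKM) lay above the lowest cytosolic members. The Ribo-Seq medians were 43.0 FPKM for the cytosolic and 5.23 FPKM for the mitochondrial members. TE in the control, as a log2 level, spanned -1.21 (EPRS) to 0.52 (FARSA) in the cytosolic set and -1.49 (VARS2) to 0.55 (YARS2) in the mitochondrial set, with medians of -0.14 and -0.59. The median over all entered genes was -0.27.

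**Figure D1:**
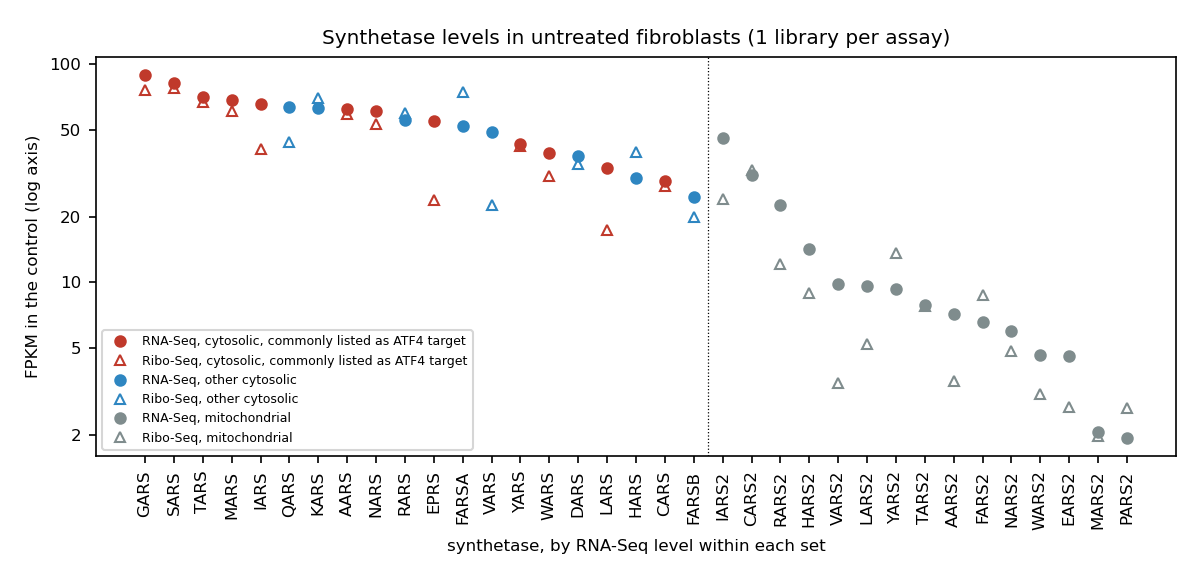
FPKM of each synthetase in the untreated control (log axis), with RNA-Seq as filled circles and Ribo-Seq as open triangles, cytosolic members to the left of the dotted line and mitochondrial members to the right, each ordered by RNA-Seq level. The cytosolic RNA-Seq levels lie between 24.6 and 88.6 FPKM, and most mitochondrial ones lie below 15 FPKM, with IARS2, CARS2 and RARS2 above.

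Symbols that differ only by the final 2 gave 12 pairs of a cytosolic and a mitochondrial enzyme in the tables. No level minimum was set for the pairs, so MARS2, NARS2 and WARS2, which did not enter, are among them. Phenylalanine, glutamate and proline, whose cytosolic enzymes are made of subunits or fused, were left out of the pairs. The cytosolic mRNA was higher in 11 of the 12 pairs, with a median RNA-Seq ratio of 4.80. The widest gap was that of the methionine enzymes, where MARS was 32.8 times MARS2, which stood at 2.08 FPKM. The exception was the cysteine pair, where CARS stood at 0.941 times CARS2 in the control and at 1.91 times CARS2 after 4 h. In Ribo-Seq the cytosolic member was likewise higher in 11 pairs, with a median ratio of 5.70, and CARS was again the exception with a ratio of 0.846.

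After 4 h of nutlin-3a, 5 of the 20 cytosolic synthetases were called higher in RNA, CARS, GARS, YARS, SARS and TARS, and none of the 30 entered synthetases was called lower. Among all entered genes 3.51% were called higher and 3.58% lower at that time. The median RNA change of the cytosolic set was 0.24, with 13 of 20 members above 0, and that of the 10 entered mitochondrial members was -0.19, with 1 above 0, against -0.07 over all genes. At 2 h no entered synthetase was called in either direction, beside 2.08% of all genes called higher and 0.214% lower, and the medians were -0.04 for the cytosolic and -0.12 for the mitochondrial set. At 6 h SARS alone was called higher and none lower, with 5.74% of all genes called higher and 11.6% lower, and the medians were 0.08 and 0.06. At 19 h FARSB alone of the entered members was called lower and none higher. Of all genes 7.13% were called higher and 14.6% lower, and the medians of the cytosolic and mitochondrial sets were -0.07 and -0.15. Against the 2 h library in place of the control, 3 synthetases were called higher at 4 h (GARS, SARS and CARS). The share of all genes called against that library was not computed, so this count has none beside it. All times share the same control library of each assay, and in bulk samples fewer expressing cells and less RNA per cell cannot be told apart.

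**Figure D2:**
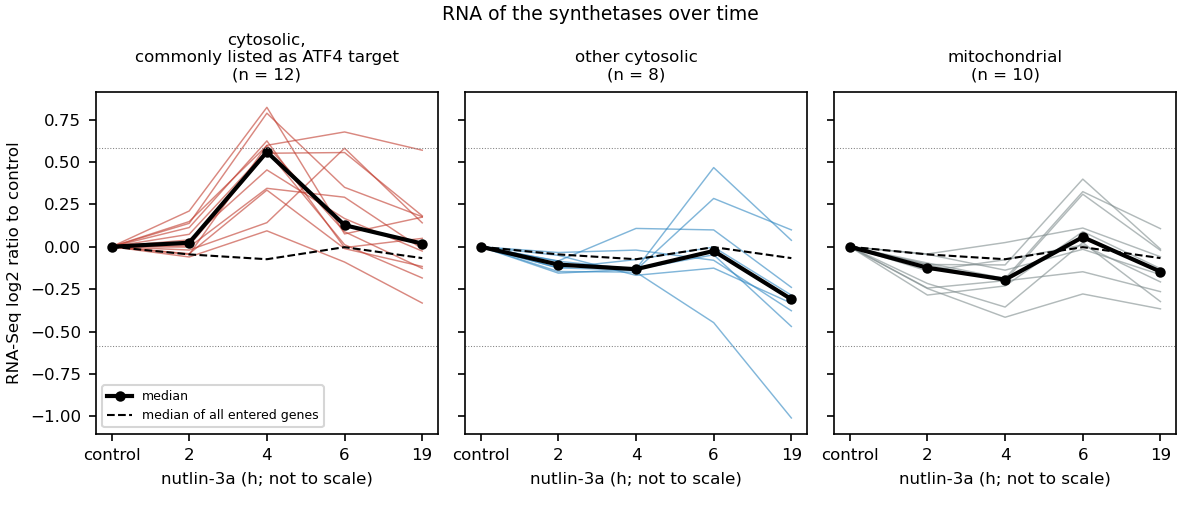
RNA-Seq log2 ratio to the control at each time (time axis not to scale) for the entered cytosolic synthetases commonly listed as ATF4 targets, the other cytosolic synthetases and the mitochondrial synthetases. Thin lines are single genes, the thick line their median, the dashed line the median of all 7015 entered genes, and the dotted lines mark 1.5-fold. The first group peaks at 4 h with a median of 0.56, while the medians of the other groups at 4 h are -0.13 and -0.19.

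The 12 cytosolic synthetases commonly listed as ATF4 targets differed at 4 h from the other 8. The lists were chosen with a rise of ATF4 targets in these data already known, so the split is a description and no independent support. All 12 had an RNA change above 0, from 0.09 (LARS) to 0.82 (CARS), with a median of 0.56, and the 5 called genes were all among them. MARS with 0.57 ± 0.03 and WARS with 0.55 ± 0.03 lay just under the threshold. The other 8 (DARS, FARSA, FARSB, HARS, KARS, QARS, RARS and VARS) ranged from -0.17 to 0.11, with a median of -0.13 and only HARS above 0. The ranges overlapped at their edges, as HARS, at 0.11 ± 0.04, exceeded LARS, at 0.09 ± 0.03. Against the 2 h library all 12 remained above 0, with a median of 0.47, and the other 8 had a median of 0.01 with 4 above 0. With all changes centred on the median of all genes, 12 of 12 and 2 of 8 lay above 0.

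CARS, the cysteinyl-tRNA synthetase, had the largest rise at 4 h. Its RNA stood at 29.1 FPKM in the control and at 33.7, 51.5, 30.7 and 32.9 FPKM at 2, 4, 6 and 19 h. The 4 h library alone was high, with a log2 change of 0.82 ± 0.04, and by 6 h the change was 0.08 ± 0.04. Ribosome density, the Ribo-Seq level, also peaked at 4 h, with 27.5, 37.0, 54.8, 36.6 and 33.5 FPKM in the control and at 2, 4, 6 and 19 h. Unlike the RNA, it was still above the control by 0.41 ± 0.07 at 6 h.

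GARS, the glycyl-tRNA synthetase, also peaked at 4 h and came back more slowly. Its RNA went from 88.6 FPKM in the control to 97.5, 153, 113 and 100.2 FPKM, so every treated library was above the control. The log2 changes were 0.79 ± 0.02 at 4 h and 0.35 ± 0.03 at 6 h. Its Ribo-Seq level went from 76.1 to 84.9, 132, 105 and 85.7 FPKM and its TE changed by no more than 0.11 at any time.

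SARS, the seryl-tRNA synthetase, was the one whose higher RNA level lasted. Its RNA was at 82.0 and 79.5 FPKM in the control and at 2 h, and at 124, 131 and 122 FPKM at 4, 6 and 19 h. The 3 later libraries were all above the earlier pair, with log2 changes of 0.60 ± 0.03, 0.68 ± 0.03 and 0.57 ± 0.03, the last just under the threshold. Its Ribo-Seq levels of 77.6, 83.8, 128, 96.0 and 92.8 FPKM rose at 4 h and then stayed closer to the control than the RNA did, and TE was lower by 6 h (-0.37 ± 0.06) and by 19 h (-0.31 ± 0.06), short of the threshold.

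YARS and TARS, which charge tyrosine and threonine, followed the transient course of CARS, with RNA changes of 0.62 ± 0.03 and 0.60 ± 0.03 at 4 h and of -0.01 ± 0.03 and 0.09 ± 0.03 at 6 h. EPRS, the fused glutamyl- and prolyl-tRNA synthetase, had an RNA change of 0.14 ± 0.02 at 4 h and 0.58 ± 0.02 at 6 h, just under the threshold. WARS, the tryptophanyl-tRNA synthetase, held its level from 4 h (57.2 FPKM) to 6 h (57.3 FPKM). By 19 h the median of the 12 was 0.02, with 6 above 0.

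**Figure D3:**
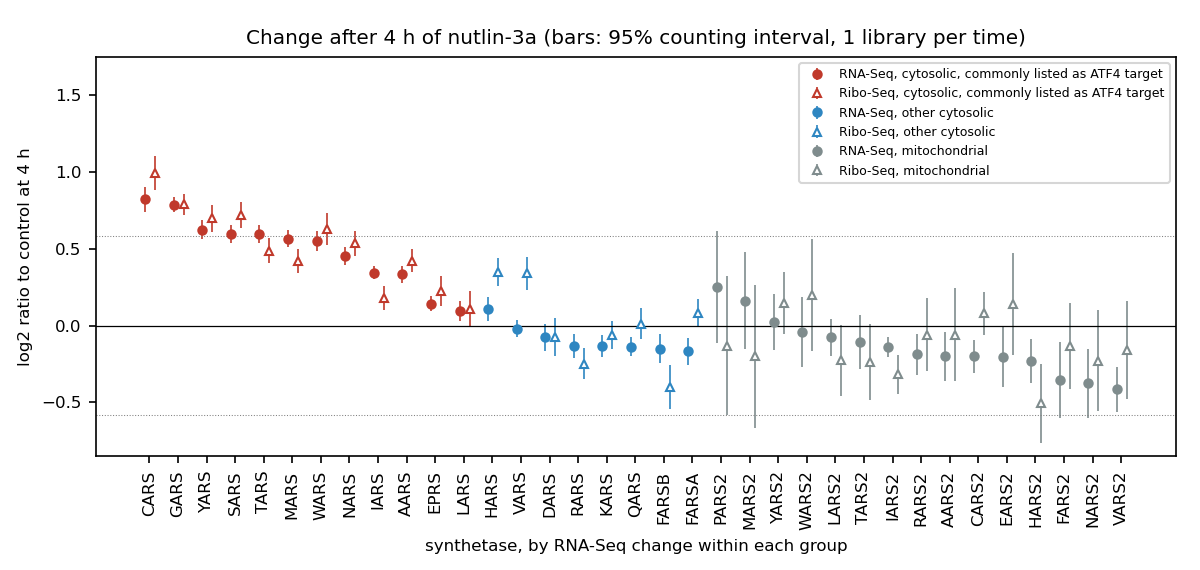
Log2 ratio to the control at 4 h for the RNA-Seq level (filled circles) and the Ribo-Seq level (open triangles) of all 35 synthetases, grouped and ordered by RNA-Seq change within each group, with bars of 95% counting intervals and dotted lines at 1.5-fold. The 12 genes at the left all have RNA-Seq changes above 0, whereas of the other 8 cytosolic genes HARS alone does.

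ATF4 binds with C/EBP proteins to a composite element whose core reads TGATGNAA. This motif was searched on both strands of RefSeq promoters (GRCh38.p14), from 250 bases before to 50 after the start site, which were matched for 29 of the 35 synthetases. DARS, LARS, VARS, YARS, AARS2 and VARS2 were not matched. It was found in 6 of 10 promoters of the ATF4-listed synthetases, in 0 of 6 of the other cytosolic ones, and in 1 of 13 mitochondrial ones (7.69%). Of all 15843 protein-coding promoters of the same length from RefSeq, 401 held it (2.53%). The list was itself made from known ATF4 targets, so the share is a description, and a match is not evidence of binding. The windows below show the match in capitals with 11 bases on either side, 5′ to 3′ on the strand of the gene, so that the 6 cytosolic sites can be compared with each other and with the single mitochondrial one.

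CARS (chr11:3057407-3057436, minus strand): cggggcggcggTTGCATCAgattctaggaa
TARS (chr5:33440956-33440985, plus strand): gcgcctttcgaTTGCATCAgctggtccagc
MARS (chr12:57488053-57488082, plus strand): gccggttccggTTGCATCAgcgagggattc
NARS (chr18:57621804-57621833, minus strand): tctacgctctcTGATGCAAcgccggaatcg
IARS (chr9:92293692-92293721, minus strand): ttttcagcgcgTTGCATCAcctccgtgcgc
AARS (chr16:70289675-70289704, minus strand): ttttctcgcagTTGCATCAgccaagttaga
YARS2 (chr12:32756076-32756105, minus strand): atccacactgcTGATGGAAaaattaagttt

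All 6 cytosolic matches were the same 8 letters, TGATGCAA, read on the strand of the gene in NARS and on the other strand in the remaining genes. The YARS2 match had other letters at the free position of the motif. In CARS, TARS, MARS, IARS and NARS the match began within 15 bases of the start site, and in AARS at position -187 from it. The RNA changes of these genes at 4 h were 0.82 for CARS, 0.60 for TARS, 0.57 for MARS, 0.45 for NARS, 0.34 for IARS and 0.33 for AARS, against 0.02 for YARS2. The ATF4-listed promoters with no match in this window were those of GARS, SARS, WARS and EPRS. Their RNA changes at 4 h were 0.79, 0.60, 0.55 and 0.14, and GARS and SARS were called higher. The changes with and without a match thus overlapped. The promoter windows of the histidine enzymes HARS (chr5:140691321-140691620, minus strand) and HARS2 (chr5:140691205-140691504, plus strand) overlap, with the genes facing away from each other, and neither window held the motif.

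FARSB was the only entered synthetase called lower in RNA. It encodes the beta subunit of the cytosolic phenylalanyl-tRNA synthetase, and FARSA the alpha subunit. FARSB RNA was at 24.6 FPKM in the control and at 22.3, 22.2, 18.1 and 12.2 FPKM at 2, 4, 6 and 19 h, lower in each treated library than in the control and lowest at 19 h. The change at 19 h was -1.01 ± 0.05 on the log2 scale, while that of FARSA was -0.33 ± 0.04 (52.0 FPKM in the control and 41.3 FPKM at 19 h). The Ribo-Seq level of FARSB went from 19.9 FPKM to 16.3, 15.1, 7.75 and 6.40 FPKM, a change of -1.64 ± 0.12 at 19 h, beside -0.28 ± 0.06 for FARSA. In both assays the change of the beta subunit was the larger one, and that of the alpha subunit stayed under the threshold.

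No entered mitochondrial synthetase was called in RNA at any time. The largest RNA changes belonged to VARS2, TARS2, FARS2 and RARS2, the mitochondrial enzymes for valine, threonine, phenylalanine and arginine. VARS2 RNA was at 9.82, 8.28, 7.36, 8.10 and 7.62 FPKM in the control and at 2, 4, 6 and 19 h, and every treated library was below the control (-0.42 ± 0.08 at 4 h). FARS2 RNA was at 6.63, 5.70, 5.18, 6.74 and 5.30 FPKM, with -0.36 ± 0.13 at 4 h, so it was below the control except at 6 h. TARS2 and RARS2 were higher at 6 h than in any other library. TARS2 RNA was at 7.87, 7.32, 7.30, 10.4 and 7.79 FPKM (0.40 ± 0.08 at 6 h) and RARS2 RNA at 22.5, 21.1, 19.8, 28.2 and 24.3 FPKM (0.32 ± 0.06 at 6 h). IARS2, the most abundant, had RNA at 45.6, 44.2, 41.5, 45.2 and 40.7 FPKM, with its largest change of -0.16 ± 0.03 at 19 h. Below the level minimum, PARS2 RNA stood at 1.95, 1.14, 2.32, 2.09 and 2.32 FPKM, and its change of -0.78 ± 0.22 at 2 h rests on the lowest of these values. NARS2, also below the minimum, had an RNA change of -0.77 ± 0.12 at 19 h.

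Within the 12 pairs of matching symbols the RNA change of the cytosolic enzyme exceeded that of the mitochondrial one in all 12 at 4 h, by a median of 0.51 on the log2 scale. The gap was widest for CARS over CARS2 (1.02) and narrowest for RARS over RARS2 (0.06). The latter is small beside the counting errors at 4 h, ± 0.04 for RARS and ± 0.07 for RARS2. MARS2, NARS2 and WARS2 lie below the level minimum, and all cytosolic partners but HARS, RARS and VARS are on the ATF4 list. At 2 h the difference was above 0 in 10 pairs (median 0.18), at 6 h in 8 (0.17) and at 19 h in 6 (0.05). For TE the cytosolic change was the larger one in 4, 6, 5 and 5 pairs at 2, 4, 6 and 19 h, with medians of -0.12, -0.02, -0.10 and -0.12. The pairs share libraries and are not replicates of a condition.

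The cytosolic enzymes can also be split by their place in the cell and by their fold. At 4 h the 8 synthetases of the multisynthetase complex (DARS, EPRS, IARS, KARS, LARS, MARS, QARS and RARS) had a median RNA change of 0.01 with none called, and the 12 free ones a median of 0.50 with 5 called. Over all entered genes the median was -0.07 at 4 h, with 3.51% called higher and 3.58% lower. Of the 8 in the complex EPRS, IARS, LARS and MARS are on the ATF4 list, and these 4 were the ones above 0. By catalytic class the difference was smaller, with medians of 0.34 for the 9 class I enzymes and 0.22 for the 10 class II enzymes. At 6 h the complex and the free enzymes had medians of 0.15 and 0.08, and at 19 h of -0.10 and -0.07. The medians over all genes were -0.002 at 6 h and -0.07 at 19 h.

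TE of the synthetases changed in few members, and these went in both directions in each set. At 2 h VARS and AARS2 were called higher and none lower, beside 5.39% of all entered genes called higher and 1.78% lower. At 4 h none was called, beside 9.24% higher and 0.713% lower. At 6 h VARS, AARS2 and VARS2 were called higher and FARSB, RARS2 and HARS2 lower, beside 13.3% and 12.3% of all genes. At 19 h VARS and AARS2 were called higher and HARS2, RARS2 and FARSB lower, beside 9.0% and 15.6%. These are 3 of 30 in either direction at 6 h and 2 and 3 of 30 at 19 h, so the shares of the synthetases were near or below those of all genes. AARS2 and VARS2 passed the level minimum only through the Ribo-Seq libraries named above, in which their levels were highest, so their higher calls in those libraries are no support, and VARS is the one higher call at 6 and 19 h that this does not touch. The median TE change of the cytosolic set was 0.09, 0.08, -0.14 and -0.26 at 2, 4, 6 and 19 h and that of the mitochondrial set 0.15, 0.13, -0.01 and 0.18, with medians over all genes of 0.04, 0.18, 0.00 and -0.07. Against the 2 h library none was called higher at 6 or 19 h and 1 was called lower at 19 h. The higher calls at both times and 2 of the 3 lower calls at 19 h thus did not hold against that library. No other library was tried as baseline, and the shares of all genes against the 2 h library were not computed. The mitochondrial medians include AARS2 and VARS2, which entered through high Ribo-Seq values at 6 h and, for AARS2, 19 h. With no level minimum, over all 15 mitochondrial members, the medians were 0.04 at 6 h and 0.12 at 19 h. The mitochondrial TE medians against the 2 h library were -0.27 at 6 h and -0.14 at 19 h. With the 2 members of a mean of at least 20 FPKM the 19 h median was -0.02, so the value of 0.18 at 19 h changed sign under these 2 settings.

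**Figure D4:**
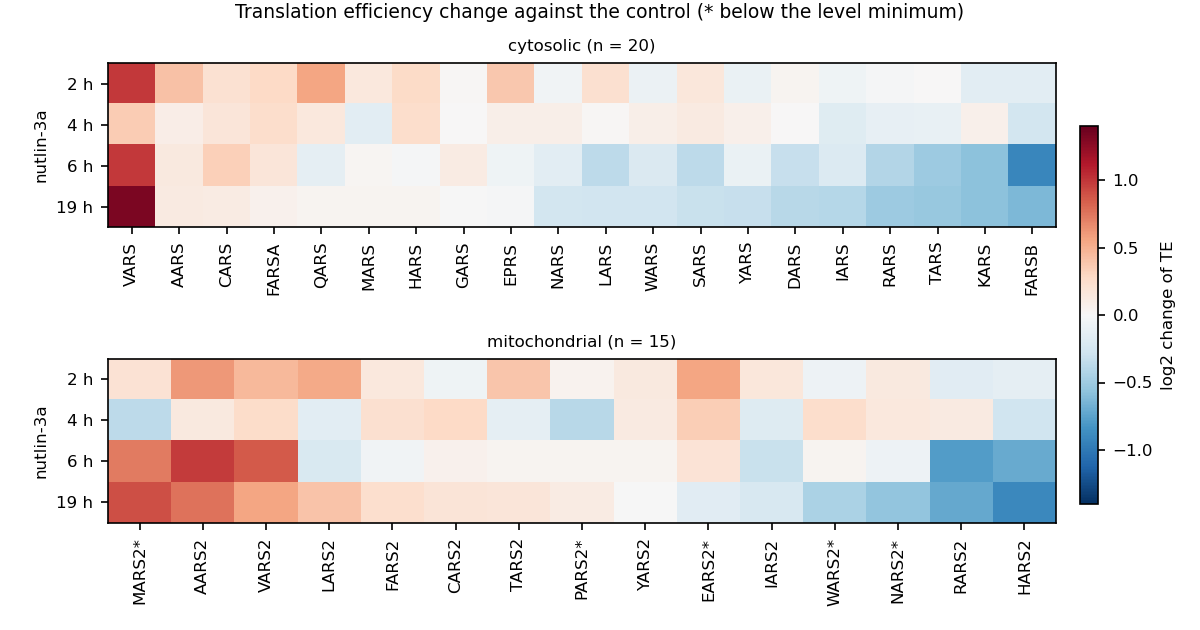
Log2 change of TE against the control for each cytosolic and each mitochondrial synthetase at 2, 4, 6 and 19 h (rows), ordered from left to right by the value at 19 h, with red for higher and blue for lower and an asterisk on members below the level minimum. VARS is the only cytosolic member with values near or above 1, and FARSB, HARS2 and RARS2 have the lowest values among entered members at 6 h.

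VARS, the cytosolic valyl-tRNA synthetase, had the largest TE change of any synthetase. Its RNA was at 48.9, 47.8, 48.3, 46.3 and 37.7 FPKM in the control and at 2, 4, 6 and 19 h, and its Ribo-Seq level at 22.6, 43.9, 28.7, 42.4 and 43.6 FPKM. The Ribo-Seq libraries of the control and 4 h were low and those of 2, 6 and 19 h high, while the RNA stayed level until 6 h. This order is not particular to VARS. Among the fibroblast markers the same Ribo-Seq libraries were low for COL1A1, COL1A2, COL3A1, FN1 and PDGFRB, though not for VIM and THY1. FN1, for example, was at 147, 476, 220, 696 and 781 FPKM in the control and at 2, 4, 6 and 19 h. The cause was not tested. In the order of the times from 2 to 19 h, the TE changes were 0.99 ± 0.06, 0.36 ± 0.06, 0.99 ± 0.06 and 1.32 ± 0.06. Against the 2 h library the value at 6 h was -0.01 and that at 19 h was 0.33. TE changes rose with transcript length over all genes, by 0.10, 0.17 and 0.15 per doubling of length at 2, 6 and 19 h but by -0.02 at 4 h, and VARS, at 4312 nt, is longer than the median transcript of 2601 nt. With that trend removed its TE changes were 0.91, 0.86 and 1.21 at 2, 6 and 19 h. Of the longer synthetase transcripts EPRS (5014 nt) had TE changes of 0.38 ± 0.06 at 2 h and -0.01 ± 0.06 at 19 h, and LARS (4766 nt) of 0.22 ± 0.07 and -0.26 ± 0.09. Across the 35 synthetases Spearman's rho between TE change and length was 0.44, -0.08, 0.19 and 0.23 at 2, 4, 6 and 19 h, a description over genes that share their libraries.

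AARS2 and VARS2, the mitochondrial alanine and valine enzymes, were the entered mitochondrial members called higher in TE. The Ribo-Seq level of AARS2 was at 3.55, 4.57, 3.41, 8.68 and 5.93 FPKM in the control and at 2, 4, 6 and 19 h, and its RNA at 7.15, 6.04, 6.22, 8.86 and 7.04 FPKM. As with VARS, the control and 4 h libraries of Ribo-Seq were the low ones, and the TE changes were 0.61 ± 0.17, 0.14 ± 0.17, 0.98 ± 0.16 and 0.76 ± 0.17. VARS2 Ribo-Seq levels of 3.49, 4.02, 3.12, 5.20 and 3.97 FPKM gave a TE change of 0.86 ± 0.17 at 6 h. Both genes are low in Ribo-Seq, and with a floor of 5 FPKM the 6 h values were 0.49 for AARS2 and 0.33 for VARS2. MARS2, below the level minimum, had TE changes of 0.72 ± 0.29 at 6 h and 0.90 ± 0.30 at 19 h.

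FARSB, HARS2 and RARS2 were the members with lower TE at 6 and 19 h. FARSB TE changed by -0.92 ± 0.11 at 6 h and -0.63 ± 0.13 at 19 h, on top of its lower RNA. HARS2, the mitochondrial histidine enzyme, had RNA at 14.2, 11.7, 12.1, 15.1 and 13.0 FPKM while its Ribo-Seq level went from 8.94 to 6.72, 6.29, 5.84 and 4.37 FPKM, lower at each step. Its TE changes were -0.70 ± 0.16 at 6 h and -0.90 ± 0.19 at 19 h, while its cytosolic counterpart HARS had -0.02 ± 0.07 and 0.03 ± 0.07. RARS2 Ribo-Seq levels were 12.2, 10.3, 11.7, 8.90 and 8.03 FPKM, with TE changes of -0.78 ± 0.16 at 6 h and -0.71 ± 0.17 at 19 h. Its lower TE came with more RNA and less Ribo-Seq signal at those times than in the control. Against the 2 h library the TE values at 19 h were -0.78 for HARS2, -0.56 for RARS2 and -0.48 for FARSB, so HARS2 alone stayed past the threshold, and at 6 h they were -0.58, -0.62 and -0.77, with HARS2 just under it.

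KARS and QARS, for lysine and glutamine, completed the cytosolic members with the largest TE changes, all under the threshold. KARS RNA was at 62.6, 56.2, 57.1, 60.6 and 45.2 FPKM and its Ribo-Seq level at 69.4, 56.4, 66.5, 45.1 and 33.7 FPKM, so that both were lowest at 19 h. For TE this gave -0.57 ± 0.07 at 6 h and -0.57 ± 0.08 at 19 h. QARS RNA was at 63.7, 58.4, 57.9, 77.6 and 68.2 FPKM and its Ribo-Seq level at 43.9, 59.0, 44.3, 48.9 and 48.5 FPKM, with the 2 h library the highest. Its TE change of 0.55 ± 0.06 at 2 h was followed by -0.13 ± 0.06 at 6 h. At 19 h TARS (-0.53 ± 0.07) and RARS (-0.51 ± 0.08) lay near KARS. Of the 20 cytosolic members 13 were below 0, beside 3897 of all 7015 entered genes.

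**Figure D5:**
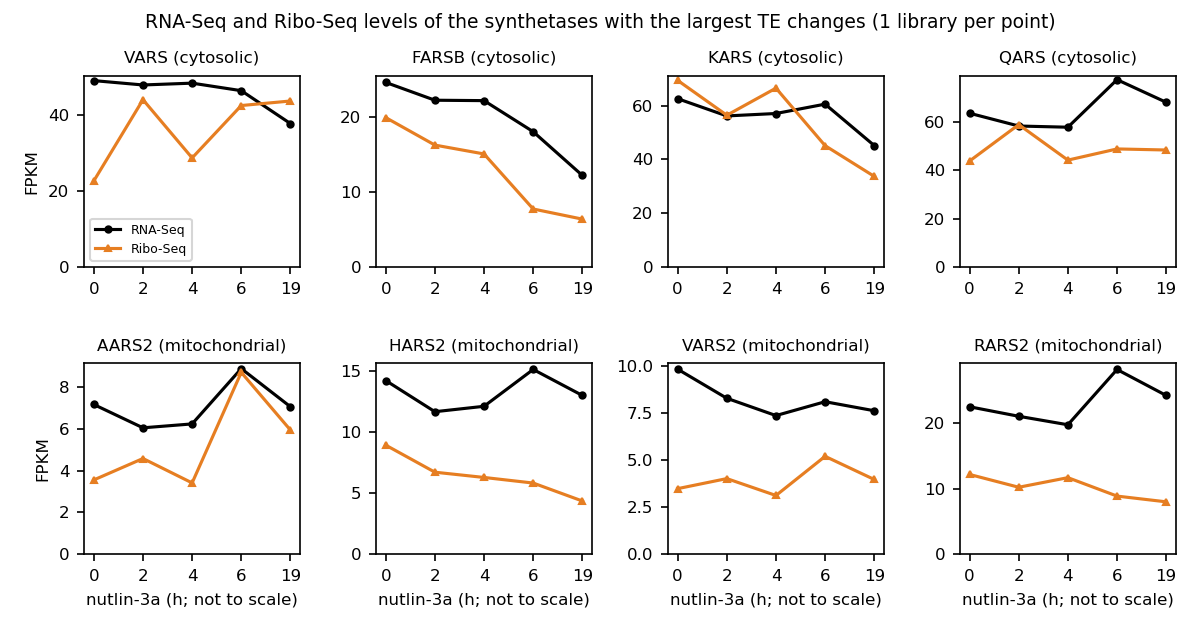
RNA-Seq (black circles) and Ribo-Seq (orange triangles) FPKM in the control (0) and at 2, 4, 6 and 19 h of nutlin-3a (time axis not to scale) for the 4 cytosolic and 4 mitochondrial members with the largest TE changes, each point 1 library. VARS Ribo-Seq goes between 22.6 and 43.9 FPKM while its RNA-Seq level stays level until 6 h, and the Ribo-Seq levels of FARSB, KARS and HARS2 end at their lowest values at 19 h.

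Of 13 genes that work beside the synthetases, as scaffolds, editing enzymes, tRNA amidation subunits or the tRNA exporter XPOT, 9 entered. AIMP2 and EEF1E1, scaffold proteins of the multisynthetase complex, were called lower in RNA, 1 of 9 at 6 h and 2 of 9 at 19 h, where 11.6% and 14.6% of all genes were. AIMP2 RNA was at 17.7, 16.4, 16.8, 11.7 and 10.3 FPKM, with changes of -0.59 ± 0.10 at 6 h and -0.78 ± 0.10 at 19 h. EEF1E1 RNA was at 20.9, 21.0, 20.1, 15.1 and 9.73 FPKM, a change of -1.10 ± 0.11 at 19 h, and it was called lower in TE at 2 h (-0.65 ± 0.15) and 19 h (-0.74 ± 0.22). The third scaffold, AIMP1, had RNA at 23.7 FPKM in the control and 22.6 FPKM at 19 h and was called lower in TE at 19 h (-0.74 ± 0.12). Of the 9 entered partners 1 was called lower in TE at 2 h and 2 at 19 h, beside 1.78% and 15.6% of all genes. TARSL2, a threonyl-tRNA synthetase-like gene below the level minimum, had a TE change of 0.87 ± 0.21 at 4 h.

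Other genes of the ATF4 pathway were higher at the same time as the synthetases, by more. Their list was also chosen with a rise of ATF4 targets in these data known, so its counts are a description. Of 24 genes listed, 21 entered, and 14 of these were called higher in RNA at 4 h, with a median change of 1.00, beside 3.51% of all genes. At 2, 6 and 19 h 6, 6 and 5 were called higher, with medians of 0.32, 0.13 and -0.02, beside 2.08%, 5.74% and 7.13% of all genes, so this list too peaked at 4 h. At 6 h 1 and at 19 h 2 of the 21 were called lower, beside 11.6% and 14.6% of all genes. The largest 4 h changes were those of DDIT4 (3.49 ± 0.13) and SESN2 (3.05 ± 0.08), both also known p53 targets and inhibitors of mTOR signalling. CHAC1, which degrades glutathione, had 2.30 ± 0.09, SLC7A5, an amino acid transporter, 1.74 ± 0.02, TRIB3, a pseudokinase that restrains ATF4, 1.47 ± 0.11, and ASNS, asparagine synthetase, 1.46 ± 0.06. ATF4 itself, named here after its values were seen, had RNA at 150, 194, 199, 116 and 142 FPKM in the control and at 2, 4, 6 and 19 h, a change of 0.40 ± 0.02 at 4 h that did not reach the threshold. Its Ribo-Seq level was at 73.4, 97.4, 129, 59.4 and 55.1 FPKM, highest at 4 h, where it differed from the control by 0.81 ± 0.04 and TE by 0.41 ± 0.05.

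The translation elongation factors, which take the charged tRNAs to the ribosome and move it along, differed from the synthetases in TE. Of the 5 listed, 4 were called lower in TE at 6 h and 4 at 19 h, with median changes of -0.83 and -1.13, where the cytosolic synthetases had -0.14 and -0.26 and 1 of 20 was called lower at each time. Of all genes 12.3% and 15.6% were called lower at these times. In RNA none of the 5 was called at any time, and their median at 4 h was -0.03.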

How the data were processed

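RNA-Seq and Ribo-Seq libraries of BJ fibroblasts, 1 per group and assay (10 in all), were analysed. According to the labels and methods, Bowtie was used by the authors to align reads to 1 protein-coding transcript per gene (Ensembl release 65, hg19) and kept unique hits, so reads shared by near-identical genes were lost. The authors deposited FPKM values with 3 decimals. Their floor of 1 FPKM was not applied in the tables and was applied here. The assay of each table was taken from its name. The methods describe Ribo-Seq values from coding sequence and the headers name totals. The recovered transcript length was the same in both tables for 86.8% of 8937 transcripts, so reads outside the coding sequence may be part of Ribo-Seq values. The methods describe differences between sequencing runs and a control of the same run for each condition; the sources used here do not name the run of the 2 and 4 h libraries. No per-sample column was left out.

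Log2 ratios to the control, TE and counts of genes changed at least 1.5-fold were computed with Python 3.11.15, numpy 2.4.6 and pandas 2.3.3. Whole reads, totals and lengths were worked out from the steps between low FPKM values for 11237 transcripts (99.8%) and gave counting errors only. On 10 simulated libraries 93.78% of the lengths found were correct. With 1 library per group no test was run, and nothing says how cultures would vary. The members and gene lists were chosen with earlier results of these data known, among them a rise of ATF4 targets. Values in every library are given for the 4 entered members of each set with the largest RNA change, the 4 with the largest TE change, and the highest and lowest in the control. Genes named outside the synthetases are partners called in RNA or TE and the 6 largest RNA changes of the ATF4 list. Promoters are from RefSeq (GRCh38.p14). The planned comparison of protein sequences was not run. Alternatives were a floor of 5 FPKM, a pseudocount of 1 FPKM, no level minimum, a mean of at least 20 FPKM, centring, the 2 h baseline, removal of the length trend and 2-fold calls.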

Additional observations from a re-analysis of the deposited data

Results flagged for a closer look

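The median RNA change of the cytosolic synthetases was 0.238 at 4 h and 0.0819 at 6 h but -0.071 at 19 h, on opposite sides of 0 and beyond the counting error of a typical member at each of these times. This contrast of times was not tested. After centring on the median of all entered genes the value at 19 h was -0.004.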

How the results depend on the processing

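No library was left out, since each group holds 1, and every change rests on the control. Of 108 recomputed medians 98 moved by less than a typical member's counting interval, and of 124 recomputed counts 94 stayed within 1.5 times. No paired analysis was possible because no group has replicates. The causes of the differences below were not tested. Shares of all genes called were computed for the main setting only, so the counts below have none beside them.

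With the 2 h library as baseline, the mitochondrial RNA medians were -0.0469 at 4 h and 0.20 at 6 h, the cytosolic TE medians -0.0734 at 4 h and -0.28 at 6 h, and the mitochondrial TE median -0.17 at 4 h. RNA calls were then 3 higher at 4 h, 2 at 6 h and 1 at 19 h. TE calls were 2 lower at 4 h, 0 higher at 6 h, and 0 higher and 1 lower at 19 h. The TE change of VARS at 6 h turned from 0.99 to -0.0054. Centred on all genes, the cytosolic medians were 0.31 at 4 h and -0.004 at 19 h in RNA and -0.10 at 4 h in TE, with 1 RNA call higher at 19 h and 1 TE call higher at 2 h. With a minimum mean of 20 FPKM (18 cytosolic, 2 mitochondrial), the cytosolic RNA median at 4 h was 0.34 and the mitochondrial one at 6 h was -0.0813. There were then 0 RNA calls lower at 19 h, 1 TE call higher at 2, 6 and 19 h each, and 0 lower at 6 and 19 h. With a floor of 5 FPKM 1 TE call was higher at 2, 6 and 19 h each, and with a pseudocount 1 at 2 h. With no level minimum 1 RNA call was lower at 2 h and 2 at 19 h. With the length trend removed 2 RNA calls were higher at 6 h and 1 TE call at 2 h. At 2-fold there were 0 RNA calls higher at 4 and 6 h, 0 TE calls higher at 2 and 6 h and 1 at 19 h (VARS), and 0 TE calls lower at 6 and 19 h.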
